A study of Arabidopsis thaliana with 10 samples.

Results

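Flavonoid biosynthesis was followed through 10 genes in dark-grown seedlings of Arabidopsis thaliana that lack different PHYTOCHROME INTERACTING FACTORS (PIFs), basic helix-loop-helix transcription factors that act in darkness and are degraded after phytochrome absorbs light. The genes were picked out by locus identifier. They are 8 enzyme genes, CHS (AT5G13930), CHI (AT3G55120), F3H (AT3G51240), F3'H (AT5G07990), FLS1 (AT5G08640), DFR (AT5G42800), LDOX (AT4G22880) and BAN (AT1G61720), and 2 MYB transcription factor genes, PAP1 (AT1G56650) and MYB12 (AT2G47460), out of 33322 loci counted. Of these, 6 had enough counts to be tested (CHS, CHI, F3H, F3'H, FLS1 and DFR), and LDOX, BAN, PAP1 and MYB12 did not. The groups were pifq (lacking PIF1, PIF3, PIF4 and PIF5), the triple mutants pif345, pif145, pif135 and pif134, the single mutants pif1, pif3, pif4 and pif5, and the wild type (WT), each with 3 biological replicates called A, B and C. All were of the Columbia background; the labels name no transgene or added agent, and no mutant alleles. Stratified seeds were given 3 h of white light and a far-red pulse of 15 min, then 48 h of darkness at 21 °C, and whole 2-day-old seedlings were harvested. RNA was read from the 3′ ends of polyadenylated transcripts, so values do not scale with transcript length. In whole seedlings, fewer cells of a type and less RNA per cell cannot be told apart.

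Flavonoids are made from phenylalanine-derived coumaroyl-CoA. Chalcone synthase (CHS) condenses it with malonyl-CoA, chalcone isomerase (CHI) closes the ring, and flavanone 3-hydroxylase (F3H) makes dihydroflavonols, to which flavonoid 3′-hydroxylase (F3'H) can add a hydroxyl group. From there flavonol synthase (FLS1) leads to flavonols, while dihydroflavonol reductase (DFR), leucoanthocyanidin dioxygenase (LDOX) and anthocyanidin reductase (BAN) lead to anthocyanins and to the proanthocyanidins of the seed coat. MYB12 and its relatives activate the early, flavonol-forming genes, and PAP1 activates the late, anthocyanin-forming ones. In seedlings the pathway is best known for its strong induction by light, in which the bZIP factors HY5 and HYH act on promoters that hold the G-box, a DNA element that PIFs bind as well.

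The 250 bases before the annotated start of CHS, F3H, FLS1 and CHI are printed. Over all libraries the first 3 of these genes moved together and CHI did not. They are given 5′ to 3′ on the strand of the gene, from the RefSeq genome TAIR10.1. Capitals mark the G-box (CACGTG) and the PIF-binding E-box (CACATG, or CATGTG where it lies on the other strand).
CHS (chr5:4488226-4488475, plus strand): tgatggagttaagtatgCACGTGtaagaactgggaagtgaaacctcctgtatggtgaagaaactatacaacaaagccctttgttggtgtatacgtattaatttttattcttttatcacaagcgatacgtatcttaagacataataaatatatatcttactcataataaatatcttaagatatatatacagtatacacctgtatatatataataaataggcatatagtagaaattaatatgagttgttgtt
F3H (chr3:19024942-19025191, plus strand): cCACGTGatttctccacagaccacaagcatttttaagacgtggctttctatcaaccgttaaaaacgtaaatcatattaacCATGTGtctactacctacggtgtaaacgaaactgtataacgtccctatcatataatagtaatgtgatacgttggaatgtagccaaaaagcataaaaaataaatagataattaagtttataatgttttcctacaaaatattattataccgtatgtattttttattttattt
FLS1 (chr5:2803583-2803832, plus strand): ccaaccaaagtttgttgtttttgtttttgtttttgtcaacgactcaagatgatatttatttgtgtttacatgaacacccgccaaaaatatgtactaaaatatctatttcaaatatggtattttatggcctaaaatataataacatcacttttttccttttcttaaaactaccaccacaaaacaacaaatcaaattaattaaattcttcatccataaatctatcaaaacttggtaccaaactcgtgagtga
CHI (chr3:20431598-20431847, minus strand): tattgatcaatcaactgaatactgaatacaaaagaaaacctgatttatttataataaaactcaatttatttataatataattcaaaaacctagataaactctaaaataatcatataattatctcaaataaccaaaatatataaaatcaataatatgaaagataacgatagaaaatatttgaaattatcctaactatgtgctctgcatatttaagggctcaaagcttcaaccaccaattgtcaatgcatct
In CHS the G-box lay 233 to 228 bases before the start. In F3H it lay 249 to 244 bases before the start, with the E-box on the other strand 170 to 165 bases before it. The stretch before F3H also overlaps the annotated locus AT3G51238 on the opposite strand.

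Searched on both strands, the G-box was present in the 250 bases before 5 of the 10 genes (CHS, F3H, DFR, BAN and MYB12), against 6.49% of 27443 promoters of the same length. The E-box CACATG was present before 1 of the 10 (F3H), against 11.1% of all promoters. The MYB elements ACCTACC and ACCTAAC were present before none of the 10, against 1.16% and 2.46% of all. FLS1, whose transcript followed CHS most closely of all loci, held neither the G-box nor the E-box in this window. A match is a run of letters and not a measured binding site, and no match says only that the letters are not in this window.

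**Figure D1:**
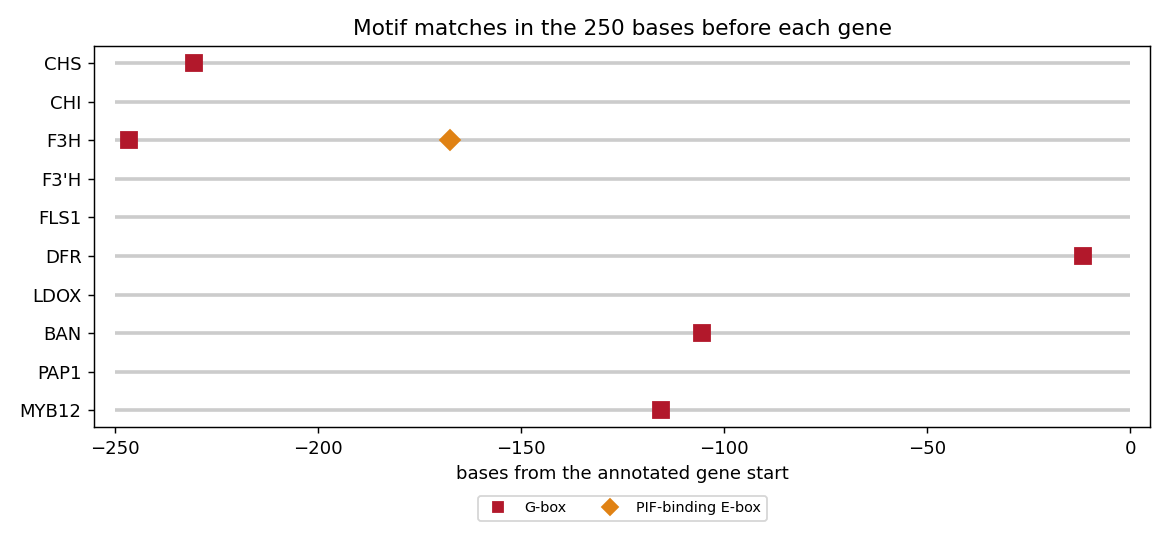
Matches to the G-box and the PIF-binding E-box in the 250 bases before the annotated start of each of the 10 genes; the x axis is the distance before the start in bases and each row is a gene. G-boxes lie before CHS, F3H, DFR, BAN and MYB12, and the only E-box lies before F3H.

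The libraries held 18.97 to 70.81 M counts (median 25.2 M). They were compared as CPM, counts brought to a common library size, after TMM scaling, a correction for differences in RNA composition, and tested with edgeR's quasi-likelihood test in 1 fit of all 30 libraries, with Benjamini-Hochberg adjustment over 18680 loci and a call at an adjusted p below 0.05. The labels speak of biological triplicates, but do not say what separates them. Libraries with the same letter mostly deviated together within WT and the single mutants, and within the triple mutants and pifq. Comparisons of pifq or a triple mutant with WT cross these sets. In them genotype cannot be told apart from any other difference between the sets. Some libraries stood apart from the rest, or did not show in their RNA the loss that their label names. RNA of PIF1, PIF3, PIF4 and PIF5 gave no call in pif4 against WT, with log2 fold changes from -0.02 to 0.67. The lowest of the 4 was -3.95 in pif1, -5.28 in pif3 and -4.58 in pif5. Loss of PIF4 is thus not seen in the RNA of the pif4 libraries. In pifq, which lacks PIF4 too, 3 of these 4 genes were called lower against WT and 1 higher, with log2 fold changes from -5.26 to 1.98. None of the 4 was called in pifq against pif135, which keeps PIF4. RNA of a removed PIF is thus not always lower, and the pif4 values do not decide whether the label holds. PIF1 RNA in the libraries labelled pif134 ran from 56.7 to 74.5 CPM, well above its 20.7 to 31.8 CPM in WT, so that a direction drawn from these libraries is not tied to the loss of PIF1. Library C of pif145 stood apart from A and B in several of the genes described here. Tests with pif145 among their groups are given also without it. Library C was singled out by its values in these same genes. Leaving it out narrows the spread by that choice, so the tests without it are descriptions and not support. Library C also enters the spread in the other comparisons, as all tests come from 1 fit. Those are given without it only where the fit held the compared genotypes alone. For CHS in pif145 against WT, the standard error was 0.48 with it and 0.30 without it.

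Of CHS, F3H and FLS1, the enzymes of the route to flavonols other than CHI, F3H fell in pifq, F3H fell in pif135, and all 3 fell in the libraries labelled pif134, each against WT. None of them was called in pif345 or pif145. CHS, the entry enzyme, had 12.1, 24.3 and 15.8 CPM in pifq and 42.6, 37.5 and 37.2 CPM in WT. All 3 pifq values lay below all 3 WT values, yet the log2 fold change of -1.17 ± 0.49 (SE) did not pass (adjusted p = 0.106), except with only pifq and WT in the fit (adjusted p = 0.0111). F3H had 2.12, 2.17 and 2.41 CPM in pifq and 5.50, 6.25 and 6.57 CPM in WT. These groups did not overlap and were tight, and F3H fell in pifq by 1.45 ± 0.38 on the log2 scale (adjusted p = 0.00955). FLS1 had 4.87, 6.61 and 5.84 CPM in pifq and 9.28, 8.93 and 9.43 CPM in WT, again without overlap, with a log2 fold change of -0.67 ± 0.41 (adjusted p = 0.293). With CHI, which was higher and is described further on, 2 of the 6 tested genes were called in pifq against WT, where 15.2% of all loci were called, and 5 of the 6 had replicate ranges that did not overlap, as did 32.7% of all loci. The median log2 fold change of the 6 genes was -0.61, beside -0.01 over all loci. The F3H call was kept without any 1 of the 6 libraries and in every other setting tried, with adjusted p up to 0.0466.

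Among the triple mutants, ranges separate from WT were seen for 4 of the 6 tested genes in pif345, 4 in pif135 and 4 in the libraries labelled pif134, and for 28.1%, 31.2% and 29.6% of all loci in these comparisons. In pif135 CHS had 17.4, 17.7 and 12.0 CPM, F3H 2.62, 2.83 and 1.98 CPM, and FLS1 7.30, 6.49 and 6.19 CPM, all below the WT values above. F3H fell in pif135 by 1.30 ± 0.38 on the log2 scale (adjusted p = 0.0224), while CHS at -1.32 ± 0.49 did not pass (adjusted p = 0.075). In pif135 against WT 2 of the 6 genes were called, where 12.6% of all loci were. The F3H call was lost without pif135 C (adjusted p = 0.10) or WT C (adjusted p = 0.0633), and with the replicate letter as a block within each set of libraries (adjusted p = 0.0821). Across the sets that block compares the levels fitted for letter A, which is another quantity. CHS in pif135 was called with the replicate letter as a plain block (-1.35, adjusted p = 0.0385), with DESeq2 (-1.34, adjusted p = 0.0375) and with only pif135 and WT in the fit (-1.33, adjusted p = 0.00489).

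In the libraries labelled pif134 CHS had 15.0, 10.7 and 17.4 CPM, F3H 2.35, 2.16 and 3.80 CPM, and FLS1 4.47, 1.63 and 4.97 CPM, each below every WT library. All 3 genes fell against WT, CHS by 1.44 ± 0.49 (adjusted p = 0.0427), F3H by 1.14 ± 0.38 (adjusted p = 0.0369) and FLS1 by 1.32 ± 0.43 (adjusted p = 0.0309) on the log2 scale. With CHI, 4 of the 6 genes were called in this comparison, where 16.9% of all loci were. These were borderline calls. CHS was lost without any 1 of the 6 libraries (adjusted p from 0.0649 to 0.181), F3H without pif134 A or B or any 1 WT library (0.0570 to 0.170), and FLS1 without pif134 B or any 1 WT library (0.0543 to 0.202). With the replicate letter as a block within each set of libraries they were lost too, at adjusted p = 0.149 for CHS, 0.141 for F3H and 0.166 for FLS1. Here too that block compares the levels fitted for letter A, so it is not a check of the same effect.

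In pif345, which keeps PIF1, none of the 6 genes was called against WT by edgeR, while 3.90% of all loci were, and 2 of the 6 and 3399 of all loci had an unadjusted p below 0.05. F3H had 6.11, 4.83 and 6.62 CPM in pif345, overlapping the WT range, and a log2 fold change of -0.06 ± 0.36. CHS had 28.8, 20.7 and 16.3 CPM and FLS1 7.73, 5.73 and 5.37 CPM in pif345, all below the WT values, with log2 fold changes of -0.83 ± 0.48 (adjusted p = 0.373) and -0.55 ± 0.41 (adjusted p = 0.505). F3H gave the 1 call of the 6 genes between pifq and pif345, which differ in PIF1, where 2.75% of all loci were called: it was lower in pifq by a log2 fold change of -1.39 ± 0.38 (adjusted p = 0.0446). That call was lost without any 1 of the 6 libraries, at adjusted p from 0.0558 to 0.171.

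In pif145 libraries A and B were high and library C was low. CHS had 70.8, 70.4 and 4.66 CPM in pif145 A, B and C, F3H 7.54, 7.34 and 1.54 CPM, and FLS1 12.5, 12.5 and 1.69 CPM. A and B exceeded every WT library for all 3 genes, and C lay below every library of every genotype for CHS and F3H. The average of A and B was 15.1 times the value of C for CHS, 4.84 times for F3H and 7.37 times for FLS1, and 1.39 times for CHI. Over all loci only 0.203% had a larger standard deviation of log2 CPM in pif145 than CHS. Genome-wide, C correlated with A and B at 0.954 and 0.942 in log2 CPM, and A with B at 0.966.

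With all 3 pif145 libraries, none of the 6 genes was called in pifq against pif145, which differ in PIF3, where 0.551% of all loci were called. For CHS, F3H and FLS1 the ranges overlapped through library C alone. CHS gave -1.48 ± 0.49 (adjusted p = 0.291) and F3H -1.30 ± 0.38 (adjusted p = 0.192). Without pif145 C, CHS was lower in pifq by -2.03 ± 0.31 (adjusted p = 0.000483) and F3H by -1.74 ± 0.31 (adjusted p = 0.00403), and FLS1 gave -1.12 ± 0.31 (adjusted p = 0.108). As C was left out for its low values in these same genes, these p-values are no support for a difference. Against WT, CHS in pif145 A and B alone gave a log2 fold change of 0.85 ± 0.30 (adjusted p = 0.111). Across the 4 triple mutants and pifq, a test of any difference called CHS (adjusted p = 0.0442) and F3H (adjusted p = 0.0170), where 8.73% of all loci were called. Without pif145 C it gave adjusted p = 5.29e-06 for CHS, 0.000126 for F3H and 0.00414 for FLS1, with the same limit. The CHS call with all libraries was lost with the replicate letter as a block, plain (adjusted p = 0.0510) or within each set (0.0624), without the libraries labelled pif134 (0.119), and without 11 of the 15 libraries left out 1 at a time, at most 0.319 without pif145 A. pifq did not differ by the test from pif135 or from the libraries labelled pif134 in any of the 6 genes, where 0.696% and 1.35% of all loci were called. This does not show that they are alike: the F3H log2 fold changes were -0.15 ± 0.39 against pif135 and -0.31 ± 0.39 against the libraries labelled pif134.

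**Figure D2:**
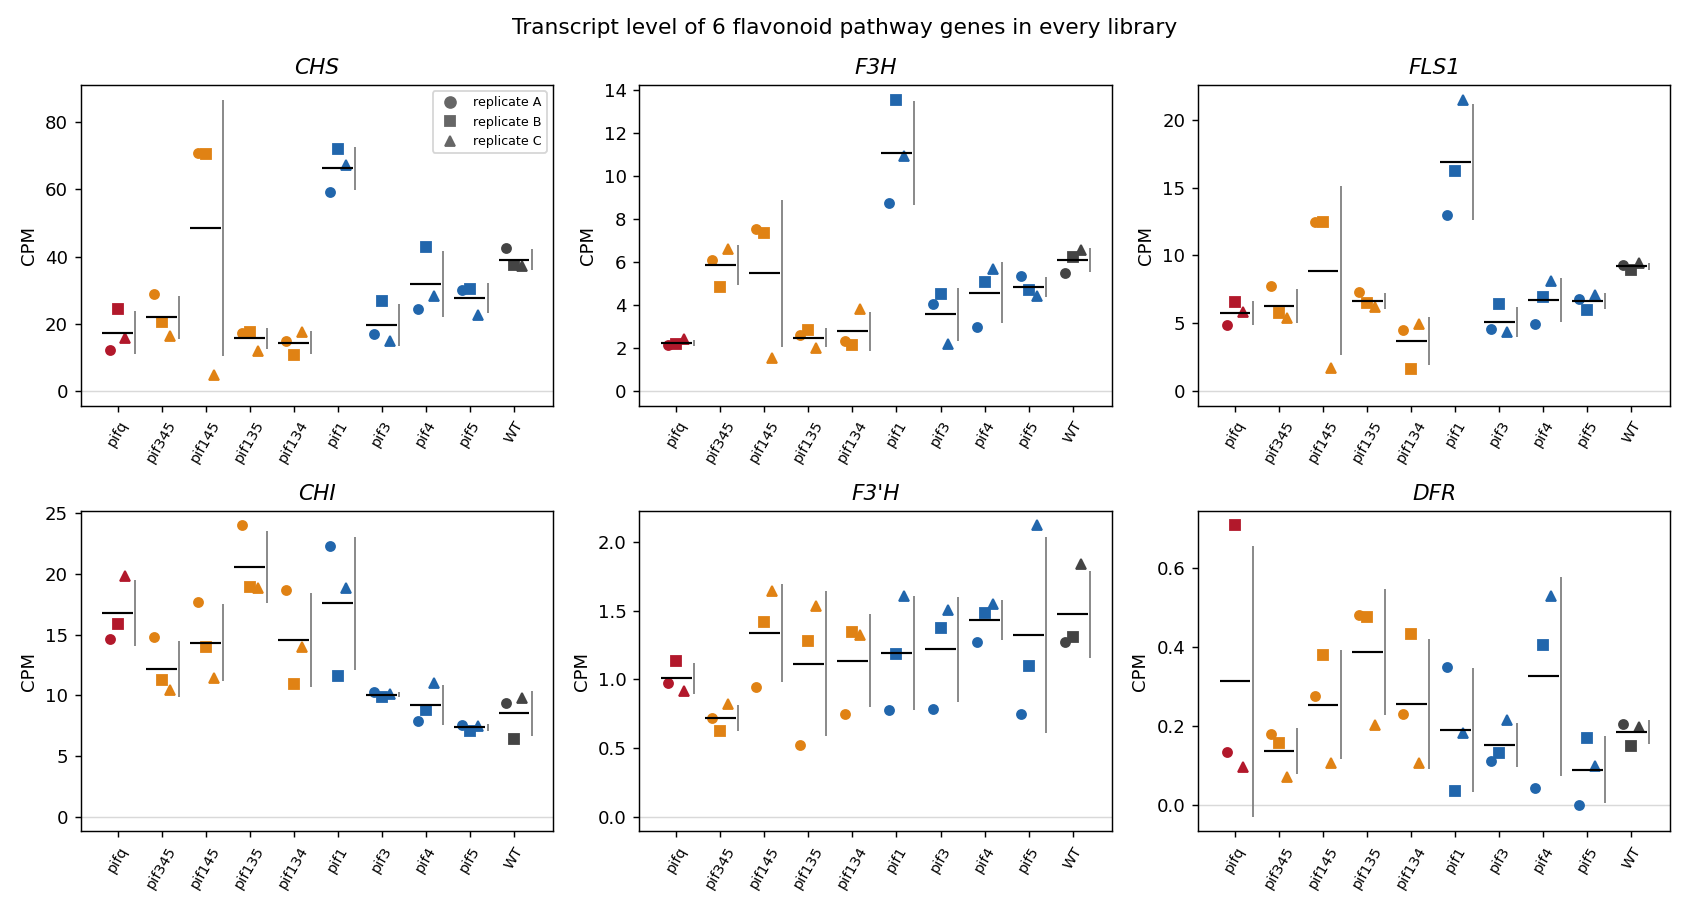
Level in CPM (y axis) of the tested genes in the 3 libraries of each genotype (x axis, from pifq to WT); circle, square and triangle are replicates A, B and C, black lines the means and grey lines ± SD. CHS, F3H and FLS1 are highest in pif1 and in pif145 A and B, while pif145 C sits at 4.66 CPM for CHS.

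Loss of PIF1 alone went with higher values of the same 3 enzymes. CHS had 59.3, 72.1 and 67.1 CPM in pif1 and 42.6, 37.5 and 37.2 CPM in WT. F3H had 8.74, 13.6 and 10.95 CPM in pif1 and 5.50, 6.25 and 6.57 CPM in WT. FLS1 had 13.01, 16.2 and 21.5 CPM in pif1 and 9.28, 8.93 and 9.43 CPM in WT. All 3 pif1 libraries lay above all WT libraries for each of them, but none passed the test: the log2 fold changes were 0.76 ± 0.48 for CHS (adjusted p = 0.393), 0.86 ± 0.36 for F3H (adjusted p = 0.1804) and 0.88 ± 0.41 for FLS1 (adjusted p = 0.230). With CHI, 4 of the 6 genes had ranges in pif1 and WT that did not overlap, as did 26.5% of all loci, and 1 was called, where 3.76% of all loci were. In the order of means over the 10 genotypes pif1 came first for CHS, F3H and FLS1. Its range was separate from that of the next genotype for F3H and FLS1, but for CHS it overlapped that of pif145.

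None of the 6 genes was called by edgeR in pif3, pif4 or pif5 against WT. In pif3 CHS had 17.1, 26.9 and 15.0 CPM, F3H 4.03, 4.51 and 2.18 CPM, and FLS1 4.58, 6.40 and 4.36 CPM, below all WT libraries in each case. The log2 fold changes in pif3 were -0.99 ± 0.48 for CHS, -0.77 ± 0.37 for F3H and -0.85 ± 0.41 for FLS1, none of which passed (adjusted p = 1.00 for all 3). Ranges in pif3 and WT did not overlap for 4 of the 6 genes, as for 8.42% of all loci. This comparison called few loci at all, 0.112%, and 2 of the 6 genes and 767 of all loci had an unadjusted p below 0.05. In pif4, where 0.0589% of all loci were called, CHS had 24.3, 42.9 and 28.1 CPM, overlapping WT, with a log2 fold change of -0.30 ± 0.48. In pif5, where 0.128% were called, CHS had 30.2, 30.4 and 22.7 CPM, below WT, with a log2 fold change of -0.49 ± 0.48. Ranges were separate from WT for 1 of the 6 genes in pif4 and 3 in pif5, and for 8.87% and 17.8% of all loci. None of the 6 genes had an unadjusted p below 0.05 in pif4 or pif5, where 676 and 2385 of all loci had one. A test of any difference among WT and the 4 single mutants called F3H (adjusted p = 0.0283), FLS1 (adjusted p = 0.0408) and CHI (adjusted p = 0.00752), where 4.48% of all loci were called, and not CHS (adjusted p = 0.144). The F3H call was lost without pif1 A, B or C, WT C, pif3 C, pif5 B or pif5 C (adjusted p up to 0.207), and the FLS1 call without any 1 of the 15 libraries (0.0503 to 0.243) and with scaling by total counts alone (0.0501). The CHI call was lost without pif1 A (0.147) or pif1 C (0.0797). CHS was called as well with the replicate letter as a block within each set (adjusted p = 0.0383) and with only these 5 genotypes in the fit (0.00278).

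For F3H the effect of losing PIF1 differed with the presence of the other PIFs. F3H averaged 11.1 ± 2.42 CPM in pif1 and 6.11 ± 0.548 CPM in WT (SD, n = 3 each), a log2 fold change of 0.86 ± 0.36 that did not pass by itself (adjusted p = 0.1804). In the background that lacks PIF3, PIF4 and PIF5 it averaged 2.24 ± 0.154 CPM in pifq and 5.85 ± 0.924 CPM in pif345 (SD, n = 3 each), and was lower by a log2 fold change of -1.39 ± 0.38. The difference of the pair of effects was -2.25 ± 0.53 (adjusted p = 0.0371), the only call among the 6 genes in the 4 differences of this kind. Over all loci 0.653% were called for this difference. The same difference was -1.09 ± 0.68 for CHS (adjusted p = 0.453), -0.998 ± 0.58 for FLS1 (adjusted p = 0.414) and -0.59 ± 0.35 for CHI (adjusted p = 0.423). The F3H difference stayed between -2.37 and -2.07 when 1 library was left out, but its adjusted p rose above 0.05 without any of the WT, pif1 and pif345 libraries or pifq A or B, at most 0.124 without pif345 C. Scaling by total counts alone shifted the median of all loci in this contrast by -0.33, and the call was kept under it. For the loss of PIF3, PIF4 and PIF5 the background percentages were 0.219%, 0.525% and 1.32%. The F3H differences were -0.53 ± 0.53, 0.27 ± 0.53 and 0.03 ± 0.54, in that order. The PIF5 value uses the libraries labelled pif134, so it is not tied to the loss of PIF5. In pifq against those libraries all 4 of the PIF genes were called lower. Without pif145 C the PIF3 differences were -0.95 ± 0.41 for F3H (adjusted p = 0.766), -1.02 ± 0.41 for CHS (adjusted p = 0.686; -0.49 ± 0.68 with all libraries) and -0.25 ± 0.42 for FLS1.

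CHI parted from CHS, F3H and FLS1 in pifq, pif135 and the libraries labelled pif134, where it rose and their values lay below WT. It rose in pif145 and pif1 too, and no comparison with WT called it lower. In pif1, and in pif145 A and B, CHS, F3H and FLS1 lay above every WT library as CHI did. CHI had 14.6, 15.9 and 19.8 CPM in pifq, 24.0, 18.9 and 18.9 CPM in pif135, and 17.6, 14.0 and 11.4 CPM in pif145. In the libraries labelled pif134 CHI had 18.6, 10.9 and 14.0 CPM, and in pif1 22.3, 11.6 and 18.8 CPM. WT had 9.36, 6.40 and 9.79 CPM, below every library of these 5 genotypes. CHI rose in pifq by 0.98 ± 0.25 (adjusted p = 0.00709), in pif135 by 1.28 ± 0.25 (adjusted p = 0.00094), in pif145 by 0.75 ± 0.25 (adjusted p = 0.0448), in the libraries labelled pif134 by 0.77 ± 0.25 (adjusted p = 0.0307) and in pif1 by 1.05 ± 0.25 (adjusted p = 0.0148), all on the log2 scale. CHI was the 1 gene of the 6 called in pif145, where 12.1% of all loci were called, and in pif1. These comparisons share the WT libraries, of which B was the lowest.

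CHI in pif345 had 14.8, 11.3 and 10.4 CPM, also above every WT library, with a log2 fold change of 0.52 ± 0.25 that did not pass (adjusted p = 0.262). In pif3, pif4 and pif5 CHI averaged 10.06 ± 0.192, 9.23 ± 1.64 and 7.36 ± 0.267 CPM and in WT 8.52 ± 1.85 CPM (SD, n = 3 each). The call in pif135 was kept without any 1 library and in every other setting, and that in pifq was lost only without WT B (adjusted p = 0.0529). The call in pif1 was lost without pif1 A, pif1 C or WT B (0.0740 to 0.0944) and with only pif1 and WT in the fit (0.0667). The call in the libraries labelled pif134 was lost without pif134 A, pif134 C or WT B (0.0539 to 0.145), with scaling by total counts alone (0.0508) and with only these and the WT libraries in the fit (0.127). The call in pif145 was lost without any 1 of the 6 libraries (0.0515 to 0.1798). Among the triple mutants and pifq, CHI showed no call for any difference (adjusted p = 0.236), except with the replicate letter as a block within each set (adjusted p = 0.0363).

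**Figure D3:**
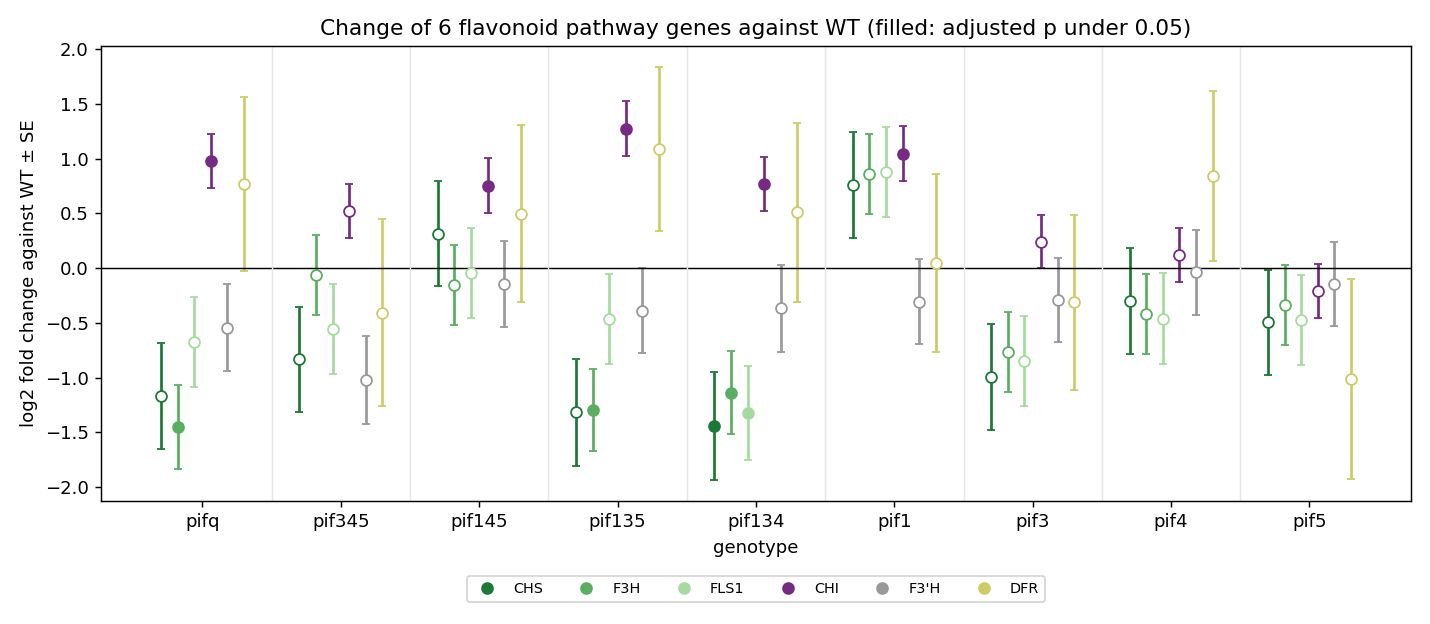
Log2 fold change against WT ± SE (y axis) of the 6 tested genes in each mutant (x axis, pifq at the left); colours are genes and filled points have an adjusted p below 0.05. CHI lies above 0 in pifq, the triple mutants and pif1, while F3H lies below it in pifq, pif135 and the libraries labelled pif134 (marked pif134) and above it in pif1.

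F3'H, the cytochrome P450 that adds the 3′-hydroxyl group, and DFR, the entry to the anthocyanin branch, were near the lower limit of what these libraries measured and no comparison called either. F3'H had 0.974, 1.13 and 0.917 CPM in pifq and 1.27, 1.31 and 1.84 CPM in WT, which did not overlap, with a log2 fold change of -0.54 ± 0.40 (adjusted p = 0.387). Its lowest values were in pif345, 0.719, 0.628 and 0.818 CPM, below those of WT, with a log2 fold change of -1.02 ± 0.40 (adjusted p = 0.164). With the replicate letter as a plain block that difference was called (-0.996, adjusted p = 0.0378). In pif1 F3'H had 0.777, 1.18 and 1.61 CPM, overlapping WT, with a log2 fold change of -0.30 ± 0.39 (adjusted p = 0.706). Whether its change there differed from those of CHS, F3H and FLS1 was not tested. DFR had 0.133, 0.708 and 0.0965 CPM in pifq and 0.205, 0.150 and 0.197 CPM in WT, groups that overlap. It amounted to 0 to 20 counts in a library, and its standard errors against WT were 0.75 to 0.91 on the log2 scale.

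The late enzymes and the MYB regulators were detected by few counts. LDOX, the last enzyme on the way to anthocyanidins, had 5, 2 and 2 counts in pifq and 1, 12 and 9 counts in WT, and ran from 0 to 19 counts over the 30 libraries. BAN, which makes the flavanols of the seed coat, had 3, 3 and 1 counts in pifq and 0, 6 and 0 counts in WT, with 58 counts in all and none in 7 libraries. Differences between genotypes in these genes were not detectable at this depth. MYB12, the activator of flavonol genes, had 6, 11 and 2 counts in pifq, 5, 6 and 11 in pif1, and 1, 6 and 6 in WT. In CPM its ranges in neighbouring genotypes overlapped all along the order of means. PAP1, the activator of anthocyanin genes, had 0, 2 and 1 counts in pifq and 10, 7 and 15 counts in pif345. In WT it had 2, 6 and 5 counts. The values in pif345 lay above those in pifq and in WT and did not overlap them. With no filter on low counts PAP1 was lower in pifq than in pif345 by a log2 fold change of -2.97 ± 0.81 (adjusted p = 0.0423), a fitted value that depends on the prior count because 1 library is at 0.

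CHS, F3H and FLS1 varied together from library to library and not just between genotypes. Over the 30 libraries the log2 CPM of CHS had a Pearson correlation of 0.89 with FLS1 and 0.87 with F3H, and F3H had 0.80 with FLS1. FLS1 and F3H ranked 1 and 2 among the 18679 other tested loci in their likeness to CHS. CHI, with a correlation of -0.04, ranked 10724. The correlations with CHS were 0.85 for FLS1 and 0.86 for F3H without the 3 pif145 libraries. After the mean of each genotype was taken off they were 0.90 for FLS1 and 0.85 for F3H, and 0.64 and 0.53 when pif145 was also left out. For CHI the correlation with CHS was then 0.35, and 0.20 when pif145 was also left out. Over the genotype means it was -0.24, so CHI parted from CHS mainly between genotypes. These are descriptions over libraries that share genotypes, sets and scaling. Among loci that averaged at least 5 CPM, the next after FLS1 in likeness to CHS were AT5G58750, a Rossmann-fold protein, at 0.70, ASAT1 (AT3G51970), a sterol acyltransferase, at 0.66, AT1G02810, of the pectin methylesterase inhibitor superfamily, at 0.65, and CIL (AT4G25990), a CCT motif protein, at 0.63. Each of these 4 lay below F3H and FLS1.

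**Figure D4:**
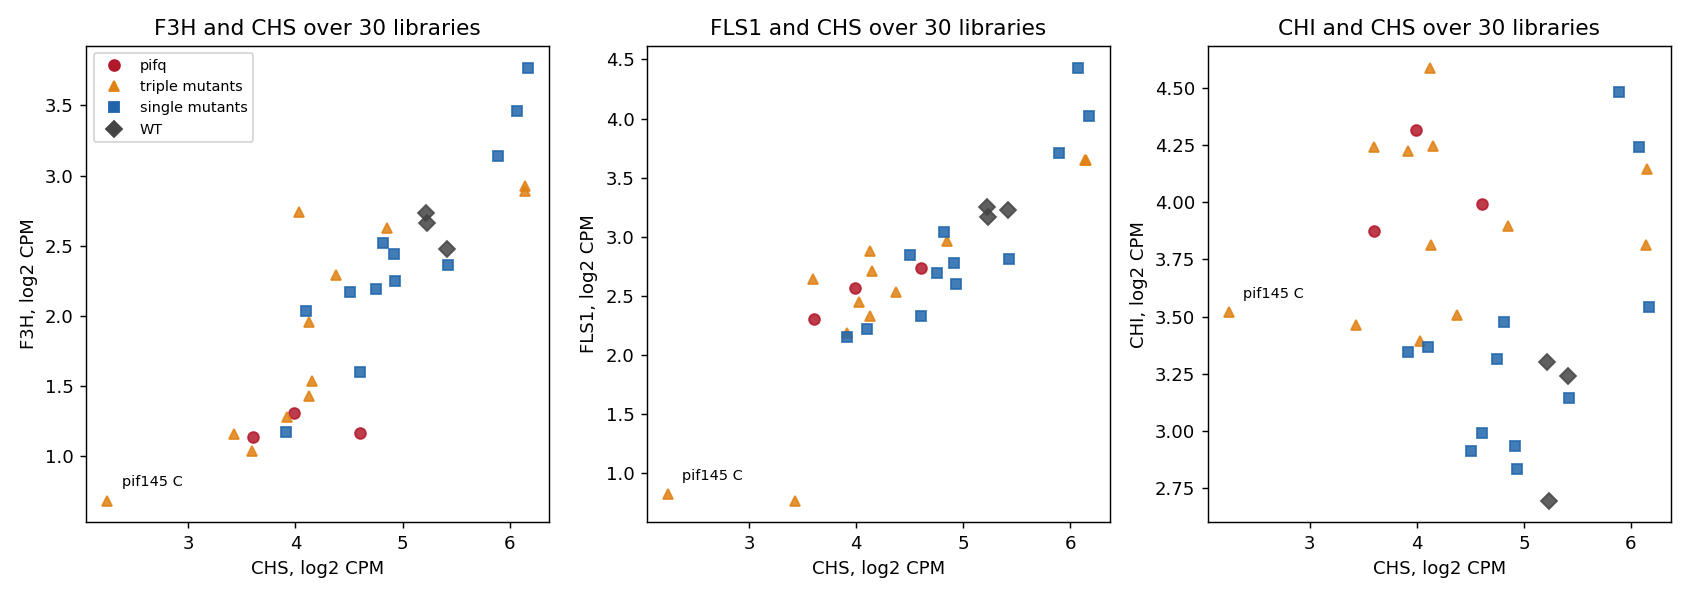
Log2 CPM of F3H, FLS1 and CHI (y axes) against log2 CPM of CHS (x axis) in the 30 libraries, with a symbol each for pifq, the triple mutants, the single mutants and WT. F3H and FLS1 rise with CHS along the whole range, with pif145 C at its low end, and CHI does not (Pearson -0.04).

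Upstream of CHS, the phenylpropanoid entry genes make coumaroyl-CoA. All 9 of them were tested, and 3 were higher and none lower in pifq against WT, where 8.01% of all loci were called higher and 7.17% lower. The phenylalanine ammonia-lyase gene PAL2 had 146, 148 and 122 CPM in pifq and 75.4, 56.4 and 71.4 CPM in WT, and rose by 1.03 ± 0.22 on the log2 scale (adjusted p = 0.00191). PAL3 rose by 1.22 ± 0.30 (adjusted p = 0.00622). 4CL3, a coumarate:CoA ligase, had 5.62, 7.93 and 5.69 CPM in pifq, 6.76, 7.89 and 6.79 CPM in pif1, and 4.27, 3.49 and 2.99 CPM in WT. It rose in pifq by 0.84 ± 0.26 (adjusted p = 0.0277) and in pif1 by 1.00 ± 0.26 (adjusted p = 0.0278), and was the 1 entry gene called in pif1. Its call in pifq was lost without pifq B, WT B or WT C and that in pif1 without any 1 of the 6 libraries (adjusted p up to 0.155 and 0.168). With only pifq and WT in the fit the pifq call was lost too (0.0733). The pif1 call was lost with only pif1 and WT in the fit and with no filter (up to 0.0501). C4H, the cinnamate hydroxylase, was highest in the libraries labelled pif134, at 1109, 809 and 571 CPM, against 365, 249 and 279 CPM in WT (log2 fold change 1.48 ± 0.25, adjusted p = 0.000101). PAL1 was called among the triple mutants and pifq (adjusted p = 0.0367, and 0.0290 without pif145 C). The call was lost without pif145 A or B, pif135 B or C, or pif134 A or B (up to 0.240). It was lost too with only these genotypes in the fit or without the libraries labelled pif134 (up to 0.744). PAL1 gave 0.36 in pifq against WT, which did not pass. In pifq the median log2 fold change against WT was 0.57 for the 9 entry genes, -0.61 for the 6 tested flavonoid genes and -0.01 over all loci.

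Of 18 further flavonoid enzyme and transport genes, 8 were tested, and 1 was higher and 1 lower in pifq, where 15.2% of all loci were called. None of the 8 was called by edgeR in pif1, where 3.76% of all loci were. UGT78D1, a flavonol rhamnosyltransferase, had 16.6, 38.2 and 24.4 CPM in pifq and 8.91, 10.7 and 12.7 CPM in WT, without overlap, and rose by 1.29 ± 0.35 (adjusted p = 0.0122). FLS3, a relative of FLS1, had 16.7, 31.1 and 17.6 CPM in pifq and 85.7, 40.7 and 35.2 CPM in WT, and fell by 1.30 ± 0.34 (adjusted p = 0.00933). The UGT78D1 call was lost without pifq B or WT A and the FLS3 call without pifq A, pifq C or WT A (adjusted p up to 0.117 and 0.147). CHIL, a non-catalytic relative of CHI that assists chalcone synthesis, had 2.10, 3.27 and 4.27 CPM in pif1 and 1.48, 1.41 and 1.41 CPM in WT. It was called among WT and the single mutants (adjusted p = 0.0120), but not without pif1 B or C (up to 0.199). In the libraries labelled pif134, where CHS was lower, CHIL was higher (log2 fold change 1.36 ± 0.35, adjusted p = 0.00626).

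Of 25 further regulators, 19 were tested, and 2 were higher and 4 lower in pifq, where 8.01% of all loci were higher and 7.17% lower. HY5, the light-signalling activator of CHS, had 10.2, 12.8 and 8.49 CPM in pifq and 22.2, 17.8 and 17.8 CPM in WT. These ranges were separate, and HY5 fell in pifq by 0.88 ± 0.24 (adjusted p = 0.0135; up to 0.0721 without pifq C or WT A). Its homologue HYH had 7.53, 16.3 and 6.61 CPM in pifq and 24.8, 55.0 and 14.2 CPM in pif145, with library C the lowest in pif145. Between pifq and pif145 HY5 was lower by a log2 fold change of -1.19 ± 0.24 (adjusted p = 0.0134) and HYH of -1.63 ± 0.38 (adjusted p = 0.0422). Without pif145 C these were -1.41 ± 0.25 (adjusted p = 0.00378) and -1.98 ± 0.37 (adjusted p = 0.00694). Both calls were lost without pif145 A or B or pifq A or C, at adjusted p up to 0.124 for HY5 and 0.323 for HYH. With only pifq and pif145 in the fit both were lost as well (HY5 at adjusted p = 0.493). HYH was lost there and without the libraries labelled pif134, at adjusted p up to 0.753. In pif1 HYH had 36.8, 43.4 and 26.9 CPM and in WT 21.1, 16.5 and 15.2 CPM, and it was called among WT and the single mutants (adjusted p = 0.0346), a call lost without 12 of the 15 libraries left out 1 at a time (up to 0.245). KFB20, an F-box protein known to promote turnover of phenylalanine ammonia-lyase, had 135, 206 and 153 CPM in pifq and 53.7, 63.8 and 66.7 CPM in WT, and rose by 1.42 ± 0.36 (adjusted p = 0.00674). Its relative KFB50 rose by 0.98 ± 0.29 (adjusted p = 0.0229; up to 0.0773 without pifq B, pifq C, WT A or WT B). MYB32, a repressor-type MYB, fell by 0.83 ± 0.21 (adjusted p = 0.00844). That call was lost without pifq C (0.0588) and with only pifq and WT in the fit (0.0575). PAP2, a close relative of PAP1, fell in pifq by 1.51 ± 0.52 (adjusted p = 0.0486), and MYB7 by 0.58 ± 0.20 (adjusted p = 0.0498). Both were named after their values were seen, and each call was lost without 5 of the 6 libraries left out 1 at a time. Of 8 other settings, 2 lost the PAP2 call and 3 the MYB7 call. In pif1 none of the 19 regulators was called by edgeR, where 3.76% of all loci were, and 8 of the 19 and 3674 of all loci had an unadjusted p below 0.05.

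**Figure D5:**
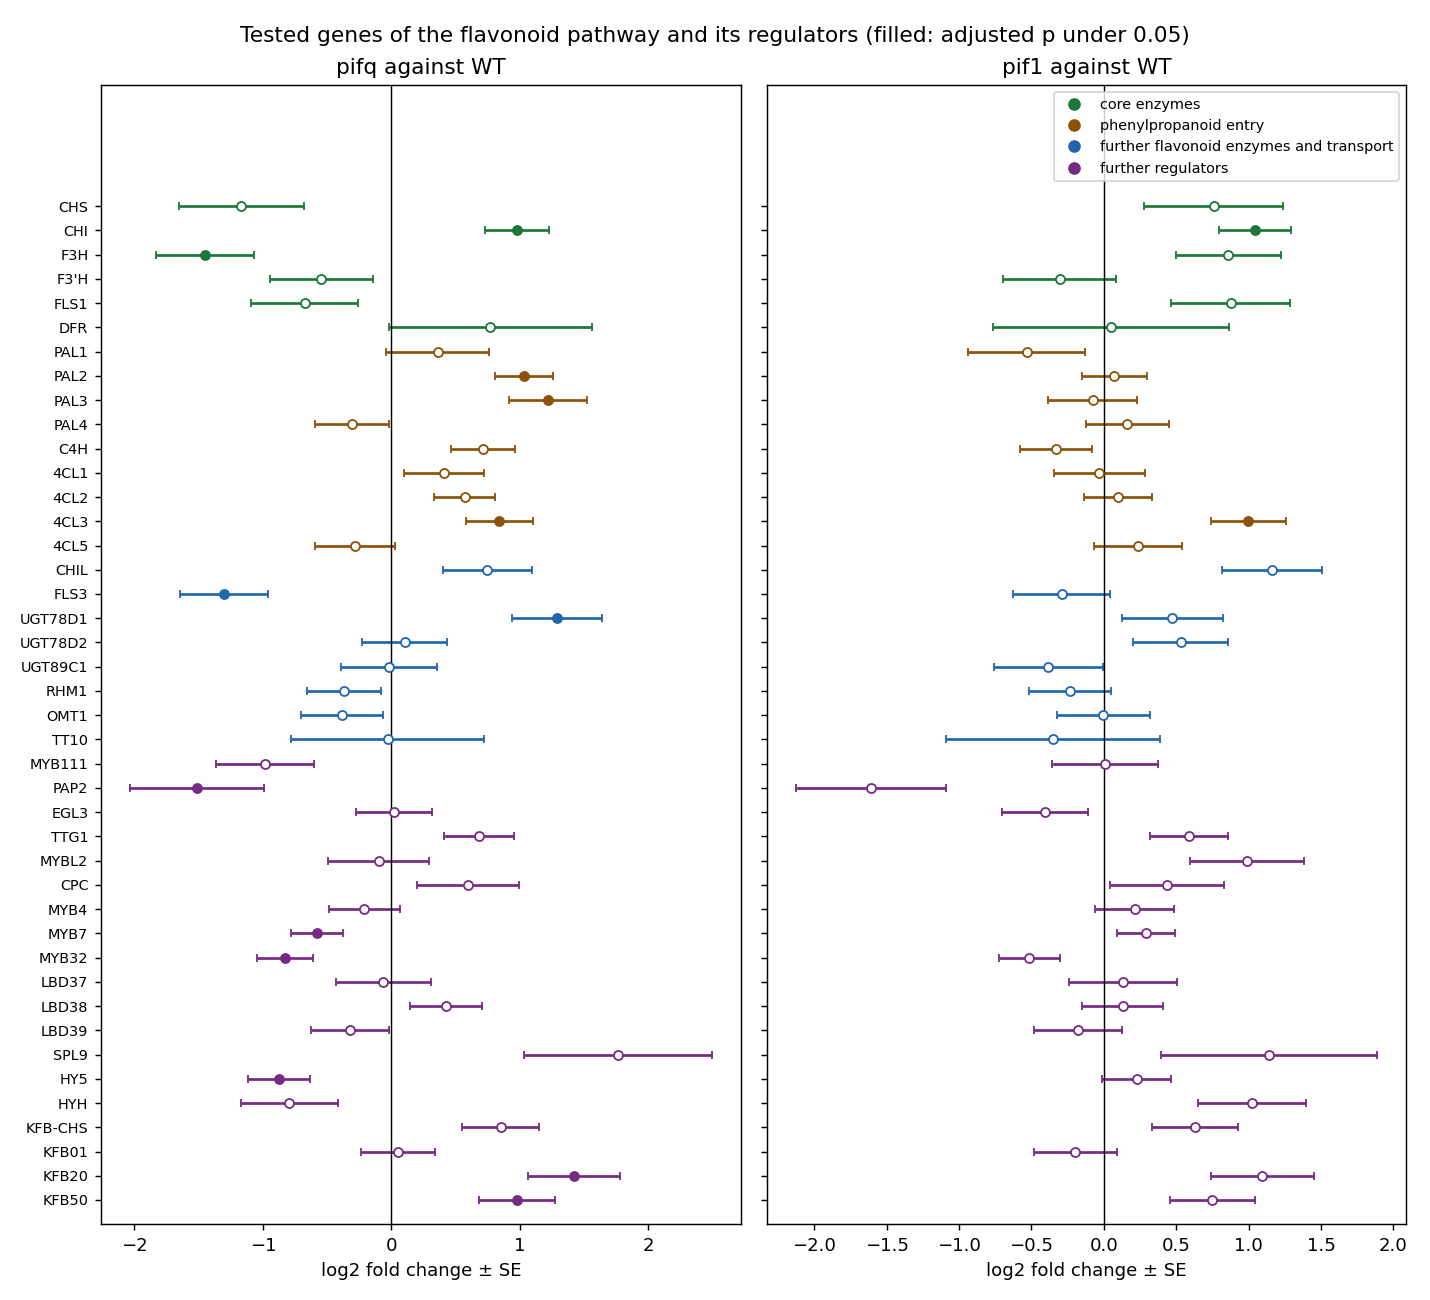
Log2 fold change ± SE (x axis) in pifq against WT (left) and pif1 against WT (right) of all tested genes of the pathway and its regulators (rows), coloured by list; filled points have an adjusted p below 0.05. In pifq PAL2, PAL3 and 4CL3 lie to the right of 0 while CHS, F3H and FLS1 lie to the left, and in pif1 all 3 of these flavonoid genes lie to the right.

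Marker genes of seedling tissues and of the embryo differed between the genotypes as well. Summed over 6 embryo storage genes, the level was 143 to 737 CPM in pifq, 33.5 to 336 CPM in pif145, 46.8 to 211 CPM in pif135, 14.9 to 294 CPM in the libraries labelled pif134 and 53.6 to 75.3 CPM in pif1, against 2421 to 4398 CPM in WT. All 6 genes had reads in every genotype. In pif345 the sum was 2182.1 to 3923 CPM, overlapping WT. In pif4 it was 812.5 to 2722 CPM, partly below WT. The 5 genotypes listed first are the 5 in which CHI was called. That match rests on the threshold, as CHI in pif345 also lay above every WT library without a call. Summed over 3 cotyledon genes, the level was 9393 to 14334 CPM in pifq, 2886 to 6455 CPM in pif1 and 1007 to 1709 CPM in WT. Summed over 4 root hair genes, it was 1.195 to 6.28 CPM in pifq, 7.93 to 13.6 CPM in pif1 and 17.9 to 34.8 CPM in WT. Summed over 7 seed coat genes, of which BAN is 1, it stayed between 0.0657 and 1.15 CPM in all 30 libraries, with 2 to 4 of the 7 above 0 in a genotype. The part of these tissue and stage differences in the flavonoid values was not tested.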

How the data were processed

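The authors captured 3′ ends of polyadenylated RNA in a strand-preserving library, per the labels' protocols; the submitters' processing notes name Bowtie 0.12.7, TAIR10 and edgeR. What was deposited are unnormalized read counts, 1 per locus and 1 column for each of 3 replicates of 10 genotypes. In 3 columns an unnamed line holds part-counts, so that those columns were taken as estimated counts among the deposited values; every named locus was whole, and the unnamed line (at most 0.0015% of a library) was left out. Whether the counting used strand is not given in the sources used here; the opposite-strand locus overlapping CHS had 0 counts in all 30 libraries, and that overlapping F3H had 4.

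Counts were tested in R 4.3.3 with edgeR 4.0.16 (quasi-likelihood; limma 3.58.1), with TMM scaling, filterByExpr at a minimum count of 10 (18680 of 33322 loci), genotype as the only term and Benjamini-Hochberg adjustment over all tested loci. CPM use the scaled library sizes, log2 CPM a prior count of 2; TMM factors ran from 0.779 to 1.198. The 19 comparisons were 9 mutants against WT, pifq against 4 triple mutants, 4 differences of effects, and 2 tests of any difference. The procedure was tested on simulated data. Alternatives were RLE scaling, total counts alone, no filter, DESeq2 1.42.0, the replicate letter as a block (plain, or within each set), fits of the compared genotypes alone, and each library left out; leaving out the libraries labelled pif134 was added after seeing the data.

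Replicates differed by more than counting error (chi-square per degree of freedom 28.3 to 206). Whether libraries with the same letter deviate together from their genotype's average was checked by correlation. One set was WT with the single mutants, the other the triple mutants with pifq. All 3 correlations exceeded 0.1 in 19 of 20 pairs of genotypes from 1 set and in 1 of 25 pairs across sets, so letters pair libraries within a set. A block within each set cannot separate the sets from genotype in comparisons of pifq or a triple mutant with WT. In these comparisons it sets the levels fitted for letter A of each set against each other. A call kept, lost or gained there is thus not a check of the same effect. The members and the gene lists were chosen with earlier results of these data known. From the further lists, up to 5 genes each were named, those with the smallest adjusted p among the calls in pifq or pif1 against WT or in a test of any difference; the other comparisons given for them were picked with their values seen. Promoters were read from the RefSeq genome TAIR10.1, with which 32834 of the loci matched by locus tag. P-values measure the spread between these libraries only, and technical duplicate runs mentioned in the labels could not be seen apart.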

Additional observations from a re-analysis of the deposited data

Results flagged for a closer look

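The response of F3H, the flavanone 3-hydroxylase gene, to loss of PIF1 differed between backgrounds. It was 2.24 ± 0.154 CPM in pifq and 5.85 ± 0.924 CPM in pif345, which differ in PIF1, but 11.1 ± 2.42 CPM in pif1 and 6.11 ± 0.548 CPM in WT (SD, n = 3 each). The difference of these effects was -2.25 on the log2 scale (edgeR's quasi-likelihood test, adjusted p = 0.0371). F3H was lower in 3 of 3 pifq libraries than in any pif345 library and higher in 3 of 3 pif1 libraries than in any WT library. The call was lost without 11 of the 12 libraries left out 1 at a time.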

How the results depend on the processing

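Settings were compared for the 29 results of the tested genes that had an unadjusted p below 0.05 in the main fit. Of the 471 recomputed values, 364 kept their side of the threshold, 97 lost the call, 10 gained it and 0 turned their direction. Tests of any difference have no direction. Results with a larger p were left out, so the lack of turns is partly fixed by this choice. Calls over all loci moved between settings as well, so the counts below are no result about these genes alone. In pif1 against WT 703 loci were called in the main fit, 236 without WT C and 3662 with the block within each set. In pif345 against WT it was 729 in the main fit and 1802 with the plain block. The number of the 10 genes called changed by over 1.5 times as follows. In pif1 it was 0 with only the compared genotypes in the fit; in pif345 it was 1 with the plain replicate block; in pif145 it was 0 with no filter and 0 with only the compared genotypes. With the replicate block within each set it was 1 in pif135 and 1 in the libraries labelled pif134. For pifq against pif345 it was 2 with no filter, PAP1 being the second. For any difference among triple mutants and pifq it was 1 with the plain replicate block, 0 with only the compared genotypes and 1 without the libraries labelled pif134. With 1 library left out the count ran from 0 to 1 in pif1, 0 to 0 in pif145, 1 to 2 in pif135, 0 to 2 in the libraries labelled pif134 and 1 to 2 in pifq. It ran from 0 to 1 for pifq against pif345, 0 to 2 for pifq against pif145 and 0 to 1 for the difference of PIF1 effects. Among WT and single mutants it ran from 0 to 2, and among triple mutants and pifq from 1 to 4. The 4 came without pif145 C, with CHS, F3H, FLS1 and PAP1. In that setting the filter on low counts also kept PAP1 and MYB12, which the main fit did not test. PAP1 had 0 to 15 counts in a library. The other comparisons stayed at 0. Smaller changes were to 3 in pif135 (DESeq2, the plain block, or only the compared genotypes), 3 in the libraries labelled pif134 (total counts alone, or only the compared genotypes) and 3 in pifq (only the compared genotypes). Among WT and single mutants the count was 2 with total counts alone and 4 with the block within each set or only the compared genotypes, and among triple mutants and pifq 3 with no filter. Beyond these and the values given above, the replicate block changed no call among the 29 results.

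Scaling by total counts alone moved the median log2 fold change of all loci by 0.12 in pif3, 0.19 in pif5, 0.17 in pif345 and -0.11 in the libraries labelled pif134. With the block within each set, the count of all loci called rose from 703 to 3662 for pif1 and from 2835 to 4975 for pifq against WT. The comparison of pifq with WT crosses the sets, so there the block compares the levels fitted for letter A. The 4975 loci thus answer another question. DFR, LDOX, BAN, PAP1 and MYB12 had at most 20 counts in a library, and depth limits what can be said of them. Intervals and standard errors cover the spread of these 3 libraries a genotype; no separate check of the RNA was available for pif145 C or for the libraries labelled pif134.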
